A study of Mus musculus with 16 samples.

Results

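The genes described here are 32 mouse genes of cholesterol, fatty acid and triglyceride synthesis, measured in growing oocytes that lacked the histone deacetylases HDAC1, HDAC2 or both. They were chosen by name for their place in these pathways, from the 18820 genes that had a probe set annotated with exactly 1 gene symbol. Earlier results of these data were known when the choice was made. Where a gene had several such probe sets, the one with the highest mean over the 16 arrays stands for it. All 32 genes had a probe set, and no member was removed by a filter on low values. The members comprise 6 genes of the mevalonate pathway, 10 of squalene and sterol synthesis, 3 SREBP regulators, 5 of fatty acid synthesis and desaturation, 3 elongases and 5 of triglyceride synthesis and the lipid droplet coat.

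The study asked what HDAC1 and HDAC2 do while the oocyte grows. Total RNA was measured on 16 Affymetrix Mouse 1.1 ST arrays, 4 biological replicates for each of 4 genotypes, with 80 oocytes pooled per sample. The genotypes were the double knockout of Hdac1 and Hdac2, the Hdac2 knockout, the Hdac1 knockout and the wild type, all taken at 12 days of age from ovaries of mice on a C57BL/6 background. The knockouts carried conditional alleles deleted by Zp3-Cre, a recombinase driven by a promoter that is active in growing oocytes, so the somatic cells of the ovary keep both genes. The sources used here do not say whether wild-type oocytes carried the conditional alleles or Cre. Levels are given as deposited, on a log scale whose base was taken as 2, and a level is compared only between samples of the same gene. A gene was called higher or lower at a limma adjusted p under 0.05, adjusted over 21218 probe sets.

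The Hdac1 probe set averaged 7.66 ± 0.10 in double knockout oocytes, 9.64 ± 0.11 in Hdac2 knockout oocytes and 6.61 ± 0.19 in Hdac1 knockout oocytes, against 9.28 ± 0.05 in wild-type oocytes (log2 level, SD, n = 4 each). It was called lower in the double knockout and the Hdac1 knockout. In the Hdac2 knockout it was called higher (0.36, limma adjusted p = 0.0172). The Hdac2 probe set averaged 10.87 ± 0.06 in double knockout, 10.99 ± 0.03 in Hdac2 knockout and 11.13 ± 0.05 in Hdac1 knockout oocytes, against 11.09 ± 0.07 in wild-type oocytes. The change of Hdac2 was called in the double knockout (-0.21, limma adjusted p = 0.00274) and not in the Hdac2 knockout (-0.10, limma adjusted p = 0.33), so these values do not check the Hdac2 deletion. The sources used here do not say which exons were deleted or where the probes lie, and samples are taken at their labels. Arrays of 1 genotype correlated at 0.995 to 0.998 over all probe sets, and double knockout with wild-type arrays at 0.975 to 0.980. These arrays give no detection calls and levels of different probe sets cannot be ranked, so the marker lists are given by how they differ between genotypes. The summed log2 level of 12 oocyte markers ran from 137.6 to 137.8 in double knockout, 137.6 to 138.2 in Hdac2 knockout and 137.8 to 138.6 in Hdac1 knockout arrays, against 138.3 to 138.6 in wild-type arrays, with Figla and Kit called lower in the double knockout. The summed log2 level of 11 granulosa cell markers ran from 53.6 to 55.3 in double knockout, 52.7 to 54.3 in Hdac2 knockout and 53.8 to 54.5 in Hdac1 knockout arrays, against 53.0 to 54.6 in wild-type arrays. Among them Inha and Gja1 were called higher and Nr5a2 and Kitl lower in the double knockout, and Kitl lower in the Hdac2 knockout. The sum over 9 theca and stroma markers was 35.1 to 35.7 in double knockout, 34.3 to 35.3 in Hdac2 knockout and 34.8 to 35.5 in Hdac1 knockout arrays, against 34.5 to 35.4 in wild-type arrays, with Acta2 called higher in the double knockout. The sum over 9 blood, immune and endothelial markers was 41.0 to 42.4 in double knockout arrays, 43.4 to 44.0 in Hdac2 knockout arrays and 43.6 to 44.3 in Hdac1 knockout arrays, against 43.7 to 44.1 in wild-type arrays, with Pecam1, Tek and Alas2 called lower and Cd68 higher in the double knockout and Tek lower in the Hdac2 knockout. The part these markers play in the results was not tested.

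Cholesterol is built from acetyl-CoA through mevalonate, isoprenoids, squalene and a chain of sterol steps. Fatty acids are built from the same acetyl-CoA, after citrate has left the mitochondrion, and are then elongated, desaturated and esterified to glycerol as triglyceride, which is stored in droplets coated by perilipins. SREBP-2, encoded by Srebf2, is the main activator of sterol genes and SREBP-1, encoded by Srebf1, of fatty acid genes; both are held in the endoplasmic reticulum by INSIG proteins when sterol is plentiful. Mouse oocytes are known for making little cholesterol of their own and for receiving it from the granulosa cells around them.

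The sequences at the starts of 5 member genes are shown. Of these, 4 (Gpat3, Plin2, Srebf2 and Fasn) had the largest rises in the double knockout. Hmgcs1 was picked because its window was the only member window with a match to the sterol response element given below. It is a classical target of the SREBP factors and had only a small change here. Each window runs from 250 bases before to 50 bases after the start of the gene, read 5′ to 3′ on the gene's strand, and comes from RefSeq on assembly GRCm38.p6. The positions are chr5:100845979-100846278 (+ strand) for Gpat3, chr4:86670010-86670309 (- strand) for Plin2, chr15:82147019-82147318 (+ strand) for Srebf2, chr11:120824498-120824797 (- strand) for Fasn and chr13:119690101-119690400 (+ strand) for Hmgcs1. Capitals mark matches on either strand to 4 motifs: TCACNCCAC, a form of the sterol response element; CACGTG, an E-box; CCAAT; and GGGCGG, the GC box. Overlapping matches were kept.
Gpat3: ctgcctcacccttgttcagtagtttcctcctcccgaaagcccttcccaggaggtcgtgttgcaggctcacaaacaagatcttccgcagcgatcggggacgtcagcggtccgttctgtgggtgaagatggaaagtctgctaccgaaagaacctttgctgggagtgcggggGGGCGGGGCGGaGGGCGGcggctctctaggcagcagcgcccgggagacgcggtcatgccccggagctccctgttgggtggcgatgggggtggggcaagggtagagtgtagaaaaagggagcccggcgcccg
Plin2: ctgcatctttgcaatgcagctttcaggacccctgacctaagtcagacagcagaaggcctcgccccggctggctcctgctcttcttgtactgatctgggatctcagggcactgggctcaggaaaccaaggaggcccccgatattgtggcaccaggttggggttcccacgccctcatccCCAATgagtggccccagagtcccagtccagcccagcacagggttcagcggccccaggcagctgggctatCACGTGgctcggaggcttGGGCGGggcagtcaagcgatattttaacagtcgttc
Srebf2: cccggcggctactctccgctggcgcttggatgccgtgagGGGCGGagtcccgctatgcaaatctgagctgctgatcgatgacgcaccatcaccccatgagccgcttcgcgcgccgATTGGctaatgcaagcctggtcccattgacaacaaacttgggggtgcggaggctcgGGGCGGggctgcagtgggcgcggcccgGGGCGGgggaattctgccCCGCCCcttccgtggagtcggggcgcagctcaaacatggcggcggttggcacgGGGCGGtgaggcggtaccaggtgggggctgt
Fasn: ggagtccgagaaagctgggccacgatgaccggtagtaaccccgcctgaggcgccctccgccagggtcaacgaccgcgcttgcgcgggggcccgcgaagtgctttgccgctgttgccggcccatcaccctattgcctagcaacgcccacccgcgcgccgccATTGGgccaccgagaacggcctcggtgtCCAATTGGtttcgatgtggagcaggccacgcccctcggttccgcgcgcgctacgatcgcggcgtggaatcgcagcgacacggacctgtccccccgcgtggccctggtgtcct
Hmgcs1: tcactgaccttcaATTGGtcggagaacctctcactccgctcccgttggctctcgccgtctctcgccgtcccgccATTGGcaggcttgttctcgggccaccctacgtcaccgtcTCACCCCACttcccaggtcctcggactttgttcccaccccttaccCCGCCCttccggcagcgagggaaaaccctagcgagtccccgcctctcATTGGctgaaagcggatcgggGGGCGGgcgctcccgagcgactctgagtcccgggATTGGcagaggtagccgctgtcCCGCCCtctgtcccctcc

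Windows were at hand for 25 of the 32 members, 32 windows in all, since some genes have several. The sterol response element was found in 1 of the 32 windows, that of Hmgcs1, and in 1.24% of all 32851 windows of the same length. CACGTG was found in 6 of the 32 member windows and 7.15% of all windows, CCAAT in 23 of 32 and 37.4%, and GGGCGG in 23 of 32 and 35.7%. Of the 4 genes with the largest rises, Gpat3 held overlapping GC boxes and none of the other motifs, Fasn held CCAAT matches alone, Srebf2 held both of these kinds, and Plin2 held an E-box, a CCAAT and a GC box. These are matches of letters and say nothing of binding.

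Loss of both deacetylases went with higher RNA of 16 of the 32 genes and lower RNA of 3, against wild type. The largest rises were those of Gpat3 (12.5-fold), Plin2 (2.37-fold), the regulator Srebf2 (2.34-fold), Fasn (2.28-fold), Dgat1 and Dgat2 (1.81-fold each) and Acaca (1.79-fold). Fdps, Srebf1 and Fdft1 were lower. Called members made up 59.4%, beside 38.3% of all probe sets tested (18.5% higher and 19.8% lower). The median change of the members was 0.19 on the log2 scale, beside -0.01 over all probe sets. As the members were chosen with earlier results of these data known, these and the later shares describe the list and do not test it. As each sample is a pool, fewer oocytes expressing a gene and less RNA per oocyte cannot be told apart. Of these 32 genes, 8 were called in the Hdac2 knockout, all higher (25.0%, beside 5.59% of all probe sets, 2.86% higher and 2.74% lower), with a median change of 0.09 beside -0.01. In the Hdac1 knockout limma called none of the members, beside 0.0707% of all probe sets, with a median change of 0.04 beside 0.00; Sqle, Cyp51 and Elovl1 had an unadjusted p under 0.05 there.

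**Figure D1:**
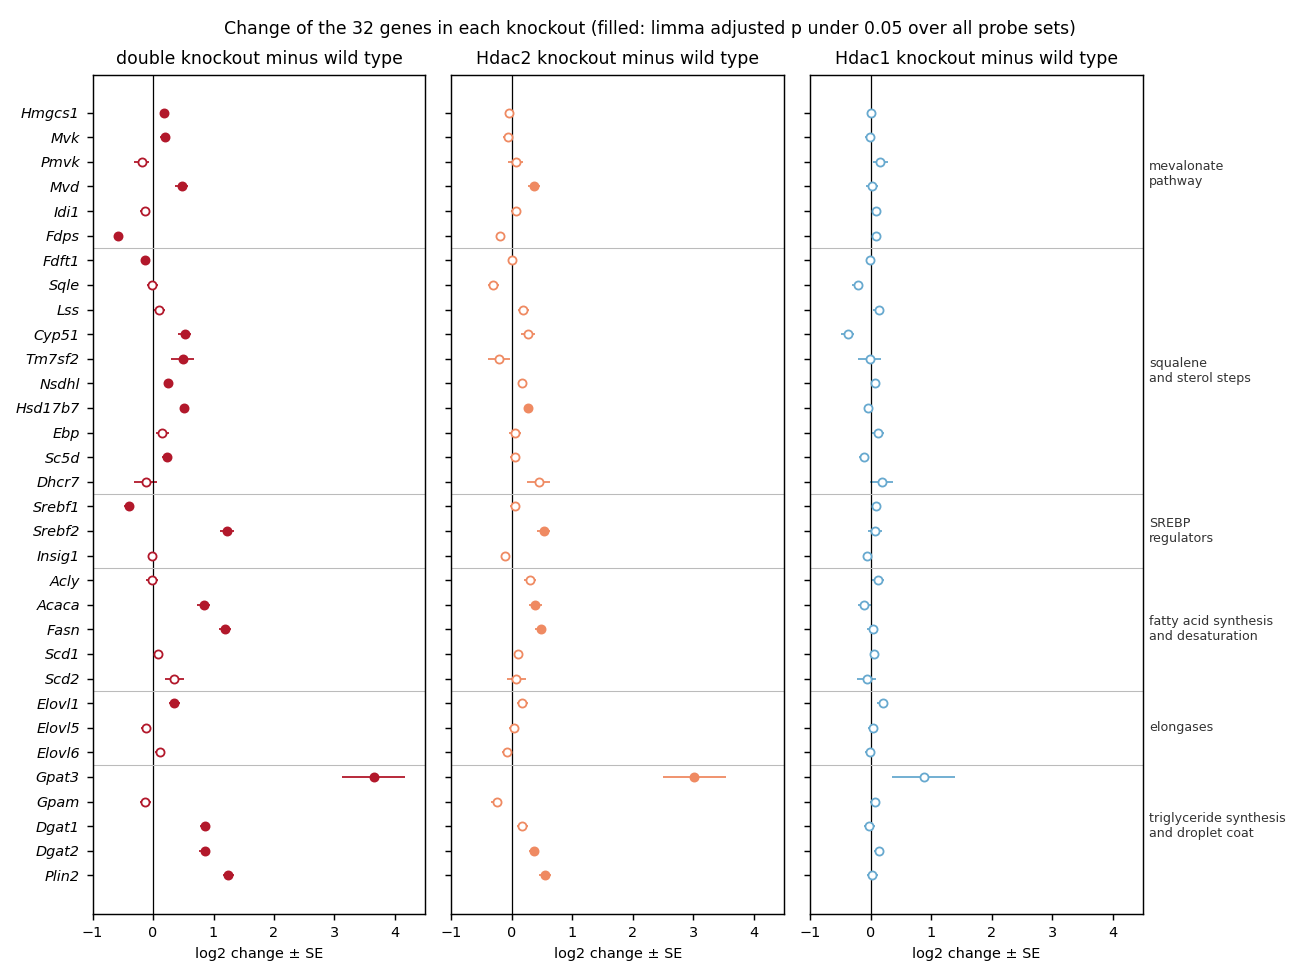
Log2 change (x axis, ± SE from limma) of each of the 32 genes against wild type in the double knockout, the Hdac2 knockout and the Hdac1 knockout, with genes grouped by role down the page; filled points were called at an adjusted p under 0.05 over all probe sets. Gpat3 stands far to the right in the double knockout (3.65) and the Hdac2 knockout (3.02), and no point is filled in the Hdac1 knockout.

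Triglyceride synthesis starts with glycerol-3-phosphate acyltransferases, of which Gpat3 encodes an enzyme of the endoplasmic reticulum and Gpam one of the mitochondrion. The log2 level of Gpat3 was 9.37, 8.88, 8.90 and 9.82 in double knockout arrays, 9.63, 8.30, 7.43 and 9.09 in Hdac2 knockout arrays and 5.19, 7.68, 7.58 and 5.42 in Hdac1 knockout arrays, against 5.59, 5.62, 5.55 and 5.62 in wild-type arrays. Every double knockout and Hdac2 knockout array lay above every wild-type array, and the Hdac1 knockout arrays lay on both sides of the wild-type range. The change was 3.65 ± 0.52 in the double knockout (SE; 12.5-fold, 95% interval 2.54 to 4.76 on the log2 scale, limma adjusted p = 3.12e-05) and 3.02 ± 0.52 in the Hdac2 knockout (8.10-fold, limma adjusted p = 0.0029). It was 0.87 ± 0.52 in the Hdac1 knockout and was not called (limma adjusted p = 0.68). Double knockout and Hdac2 knockout arrays overlapped, and the difference between them, 0.63, was not called. Gpam had -0.13 in the double knockout and -0.25 in the Hdac2 knockout, both not called.

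Dgat1 and Dgat2 encode unrelated acyltransferases that make triglyceride from diacylglycerol. The log2 level of Dgat1 was 8.69, 8.29, 8.59 and 8.24 in double knockout arrays, 7.80, 7.65, 7.70 and 7.92 in Hdac2 knockout arrays and 7.61, 7.61, 7.53 and 7.52 in Hdac1 knockout arrays, against 7.60, 7.61, 7.52 and 7.64 in wild-type arrays. The double knockout arrays stood above all others, with a change of 0.86 ± 0.09 against wild type (limma adjusted p = 8.95e-07), and the Hdac2 knockout's 0.18 was not called (limma adjusted p = 0.31). Dgat2 differed from it in the Hdac2 knockout. Its log2 level was 8.55, 8.31, 8.28 and 8.47 in double knockout arrays, 8.06, 8.03, 7.72 and 7.85 in Hdac2 knockout arrays and 7.72, 7.54, 7.77 and 7.72 in Hdac1 knockout arrays, against 7.59, 7.67, 7.48 and 7.46 in wild-type arrays. Both the double knockout and the Hdac2 knockout lay above wild type with no overlap. The changes were 0.85 ± 0.09 (limma adjusted p = 6.77e-07) in the double knockout and 0.37 ± 0.09 (limma adjusted p = 0.0194) in the Hdac2 knockout, and the second call was lost in 4 of 8 fits that each left out 1 array.

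Plin2 encodes perilipin-2, the coat protein of lipid droplets in most cells other than fat cells. Its log2 level was 8.20, 8.22, 8.14 and 8.31 in double knockout arrays, 7.35, 7.47, 7.64 and 7.62 in Hdac2 knockout arrays and 6.98, 6.96, 7.19 and 6.87 in Hdac1 knockout arrays, against 7.04, 6.82, 6.81 and 7.22 in wild-type arrays. The double knockout stood above the Hdac2 knockout, which stood above wild type, with no overlap at either step. The change was 1.25 ± 0.10 in the double knockout (limma adjusted p = 3.36e-08) and 0.55 ± 0.10 in the Hdac2 knockout (1.46-fold, limma adjusted p = 0.00291). Plin2 and Elovl1 lie on chromosome 4 with Hdac1, and Lss on chromosome 10 with Hdac2. Of the 5 triglyceride and droplet genes, 4 rose and none fell in the double knockout, and 3 rose in the Hdac2 knockout. Over all probe sets, 18.5% rose and 19.8% fell in the double knockout, and 2.86% rose in the Hdac2 knockout.

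**Figure D2:**
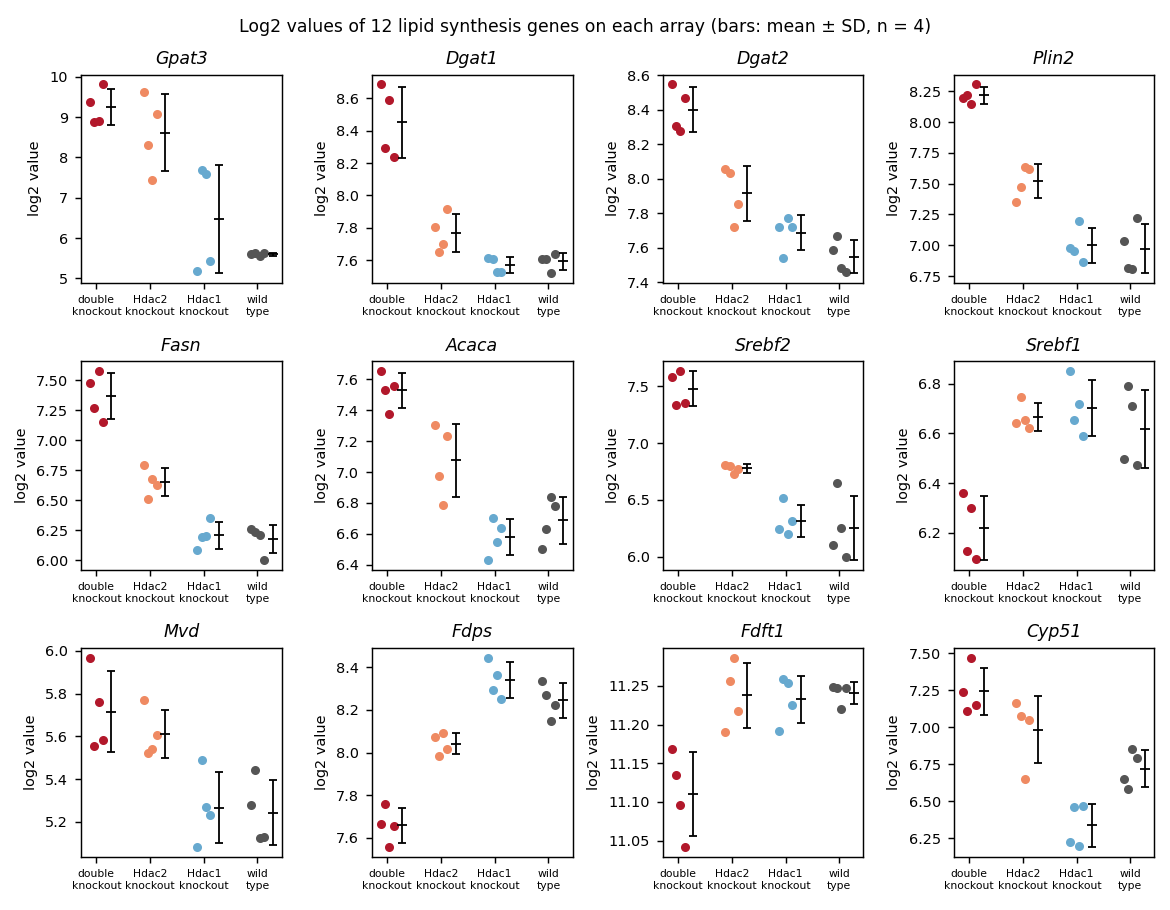
Log2 level of 12 members on each of the 16 arrays (points), by genotype from double knockout through Hdac2 knockout and Hdac1 knockout to wild type, with bars for the mean ± SD of each genotype (n = 4); each panel has its own y axis. Plin2, Srebf2 and Fasn step down from the double knockout through the Hdac2 knockout to wild type, Fdps runs the other way, and Gpat3 spreads over 5.19 to 7.68 in the Hdac1 knockout.

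Acetyl-CoA carboxylase 1, encoded by Acaca, makes the malonyl-CoA that fatty acid synthase, encoded by Fasn, joins into palmitate. The log2 level of Fasn was 7.47, 7.27, 7.58 and 7.15 in double knockout arrays, 6.79, 6.51, 6.68 and 6.63 in Hdac2 knockout arrays and 6.08, 6.20, 6.20 and 6.36 in Hdac1 knockout arrays, against 6.26, 6.23, 6.21 and 6.00 in wild-type arrays. As for Plin2, the double knockout, the Hdac2 knockout and wild type did not overlap. The change was 1.19 ± 0.09 in the double knockout (limma adjusted p = 4.15e-08) and 0.48 ± 0.09 in the Hdac2 knockout (1.39-fold, limma adjusted p = 0.00672).

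Acaca had log2 levels of 7.65, 7.53, 7.38 and 7.55 in double knockout arrays, 7.31, 6.98, 6.79 and 7.23 in Hdac2 knockout arrays and 6.43, 6.70, 6.55 and 6.64 in Hdac1 knockout arrays, against 6.50, 6.63, 6.84 and 6.78 in wild-type arrays. The double knockout lay above all other arrays, and the Hdac2 knockout overlapped wild type. The change was 0.84 ± 0.11 in the double knockout (limma adjusted p = 8.35e-06) and 0.39 ± 0.11 in the Hdac2 knockout (limma adjusted p = 0.0433), where the call was lost in 6 of 8 fits without 1 array and in 5 of 7 other settings. A second Acaca probe set gave 0.46 in the double knockout (limma adjusted p = 0.0213) and 0.31, not called, in the Hdac2 knockout. The ATP citrate lyase gene Acly, whose enzyme supplies the acetyl-CoA, and the desaturase genes Scd1 and Scd2 were not called against wild type in any knockout. Their relatives Scd3 and Scd4 belong to a further list described below. Scd3 ran from 8.65 to 9.19 in double knockout arrays, above the 7.76 to 7.88 of wild-type arrays. It ran from 7.84 to 8.25 in Hdac2 knockout arrays and from 7.43 to 7.95 in Hdac1 knockout arrays. Scd4 ran from 3.08 to 3.43 in double knockout and from 3.12 to 3.42 in wild-type arrays.

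Of the elongases, which lengthen fatty acids made by the synthase, Elovl1 averaged 10.10 ± 0.17 in double knockout oocytes and 9.75 ± 0.15 in wild-type oocytes (log2 level, SD, n = 4), a rise of 0.35 (limma adjusted p = 0.0065). Elovl5 and Elovl6 were not called in any knockout. Over the 13 fatty acid and triglyceride genes, 7 were higher, none lower and 6 not called in the double knockout, with a median change of 0.35. Of all probe sets, 18.5% were higher and 19.8% lower there, with a median change of -0.01.

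The genes of the SREBP factors moved in opposite directions. The log2 level of Srebf2 was 7.58, 7.34, 7.63 and 7.35 in double knockout arrays, 6.80, 6.80, 6.73 and 6.77 in Hdac2 knockout arrays and 6.24, 6.52, 6.20 and 6.32 in Hdac1 knockout arrays, against 6.11, 6.65, 6.25 and 6.00 in wild-type arrays. Double knockout, Hdac2 knockout and wild type again held separate ranges, with a change of 1.22 ± 0.11 in the double knockout (limma adjusted p = 3.2e-07) and 0.52 ± 0.11 in the Hdac2 knockout (1.44-fold, limma adjusted p = 0.0136). Srebf1 had log2 levels of 6.36, 6.13, 6.30 and 6.09 in double knockout arrays, 6.64, 6.75, 6.66 and 6.62 in Hdac2 knockout arrays and 6.85, 6.66, 6.72 and 6.59 in Hdac1 knockout arrays, against 6.50, 6.79, 6.71 and 6.47 in wild-type arrays. The double knockout lay below all other arrays, and the single knockouts overlapped wild type. The change of Srebf1 was -0.40 ± 0.08 in the double knockout (limma adjusted p = 0.000934) and 0.05 in the Hdac2 knockout, where it was not called. Insig1, which encodes a protein that holds SREBPs back, averaged 10.42 ± 0.06 in double knockout oocytes, against 10.44 ± 0.06 in wild-type oocytes, and was not called.

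Within the mevalonate pathway the members did not move as one: 3 rose, 1 fell and 2 were not called in the double knockout. The shares of all probe sets there were 18.5% higher and 19.8% lower. Mvd, whose enzyme makes isopentenyl diphosphate, had log2 levels of 5.97, 5.56, 5.76 and 5.58 in double knockout arrays, 5.77, 5.52, 5.54 and 5.61 in Hdac2 knockout arrays and 5.08, 5.49, 5.27 and 5.23 in Hdac1 knockout arrays, against 5.28, 5.44, 5.12 and 5.13 in wild-type arrays. The double knockout and the Hdac2 knockout lay above wild type by 0.47 (limma adjusted p = 0.00152) and 0.37 (limma adjusted p = 0.0495), and the second call was lost in 7 of 8 fits without 1 array. Hmgcs1, which encodes the synthase that makes HMG-CoA, averaged 10.80 ± 0.05 in double knockout oocytes and 10.62 ± 0.11 in wild-type oocytes, a rise of 0.18 (limma adjusted p = 0.0251). Mvk, encoding mevalonate kinase, rose by 0.19 (limma adjusted p = 0.0453). The calls for Hmgcs1 and Mvk were lost after centring of the arrays on their medians and after quantile normalization.

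Farnesyl diphosphate synthase, encoded by Fdps, stands where isoprenoids leave for sterols and for protein prenylation. Its log2 level was 7.67, 7.76, 7.56 and 7.65 in double knockout arrays, 8.08, 7.98, 8.09 and 8.02 in Hdac2 knockout arrays and 8.44, 8.29, 8.36 and 8.25 in Hdac1 knockout arrays, against 8.34, 8.27, 8.15 and 8.22 in wild-type arrays. Double knockout arrays were the lowest and Hdac2 knockout arrays the next, with no overlap of either with wild type. The change of Fdps was -0.58 ± 0.06 in the double knockout (limma adjusted p = 8.65e-07). The Hdac2 knockout had -0.20, which was not called (limma adjusted p = 0.063). Pmvk and Idi1 were not called against wild type in any knockout.

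In the steps after farnesyl diphosphate 5 of 10 genes rose, 1 fell and 4 were not called in the double knockout. The shares of all probe sets there were 18.5% higher and 19.8% lower. Hsd17b7, encoding a sterol 3-ketoreductase, averaged 10.48 ± 0.09 in double knockout, 10.25 ± 0.06 in Hdac2 knockout and 9.94 ± 0.07 in Hdac1 knockout oocytes, against 9.98 ± 0.03 in wild-type oocytes (log2 level, SD, n = 4 each). Its rises of 0.50 in the double knockout (limma adjusted p = 2.26e-06) and 0.27 in the Hdac2 knockout (limma adjusted p = 0.00925) made it the one gene of these 10 called in the Hdac2 knockout. Nsdhl, whose product acts in removing the sterol C4 methyl groups, averaged 9.55 ± 0.07 in double knockout and 9.30 ± 0.08 in wild-type oocytes, a rise of 0.25 (limma adjusted p = 0.00243).

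Cyp51, encoding lanosterol 14α-demethylase, had log2 levels of 7.24, 7.11, 7.47 and 7.15 in double knockout arrays, 7.16, 7.08, 6.65 and 7.05 in Hdac2 knockout arrays and 6.22, 6.46, 6.20 and 6.47 in Hdac1 knockout arrays, against 6.65, 6.58, 6.85 and 6.79 in wild-type arrays. Double knockout arrays lay above wild type and Hdac1 knockout arrays below it, without overlap. The change was 0.52 ± 0.11 in the double knockout (limma adjusted p = 0.00109), and the Hdac1 knockout's -0.38 was not called. Sc5d and Tm7sf2, encoding a sterol desaturase and a sterol reductase, had 0.23 (limma adjusted p = 0.0427) and 0.49 (limma adjusted p = 0.0495) in the double knockout. Both calls were lost under either renormalization and in 6 and 5 of 8 fits without 1 array.

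Fdft1, encoding squalene synthase, the first enzyme committed to sterols, had log2 levels of 11.17, 11.14, 11.10 and 11.04 in double knockout arrays, 11.19, 11.26, 11.29 and 11.22 in Hdac2 knockout arrays and 11.19, 11.26, 11.25 and 11.23 in Hdac1 knockout arrays, against 11.25, 11.25, 11.22 and 11.25 in wild-type arrays. The double knockout arrays were the lowest. Fdft1 was lower there by a small amount, -0.13 ± 0.04 (limma adjusted p = 0.0303), a call lost in 5 of 8 fits without 1 array. Sqle, Lss, Ebp and Dhcr7 were not called in any knockout against wild type. Over the 16 enzymes of the sterol pathway, mevalonate steps included, 8 were higher, 2 lower and 6 not called in the double knockout. Their median change there was 0.17, beside -0.01 over all probe sets, of which 18.5% were higher and 19.8% lower. In the Hdac2 knockout 2 of the 16 were higher, beside 2.86% of all probe sets. The 13 members not called in the double knockout had changes from -0.19 to 0.35.

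The double knockout was also compared with each single knockout, from which it differs by label in the second deletion. The Hdac1 probe set differed as well, at 7.66 in double knockout and 6.61 in Hdac1 knockout oocytes. The part this plays was not tested. Against the Hdac1 knockout, 16 members were higher and 5 lower (65.6%, beside 38.7% of all probe sets, 18.7% higher and 20.1% lower). The count was 13 in place of 21 without Hdac1 knockout replicate 3. Fasn (1.16 ± 0.09, limma adjusted p = 5.5e-08) and Plin2 (1.22 ± 0.10, limma adjusted p = 4.28e-08) rose there, as did Acaca by 0.95 and Cyp51 by 0.91. Against the Hdac2 knockout, 11 were higher and 5 lower (50%, beside 33.7% of all, 16.8% higher and 16.9% lower). Tm7sf2, Plin2, Srebf2, Fasn and Dgat1 had the largest called rises there, each by 0.68 to 0.71. Dhcr7, which encodes the last reductase of cholesterol synthesis, was lower in the double knockout than in the Hdac2 knockout, by -0.56 (limma adjusted p = 0.0316). That call was lost in 6 of 8 fits without 1 array, and the change was -0.36 without double knockout replicate 3. Between the single knockouts, the Hdac1 knockout was higher than the Hdac2 knockout for 2 members and lower for 7 (28.1%, beside 5.78% of all, 2.81% higher and 2.96% lower).

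The interaction of the deletions is the change on losing Hdac2 in oocytes without Hdac1, minus the change on losing Hdac2 in oocytes with Hdac1, on the log2 scale. It was called for 12 of 32 members, 9 above and 3 below 0 (37.5%, beside 23.3% of all probe sets, 11.7% above and 11.6% below). Dgat1 had the smallest p: loss of Hdac2 went with 0.88 in oocytes without Hdac1 and 0.18 in oocytes with it, an interaction of 0.71 ± 0.13 (limma adjusted p = 0.000609). The interactions of Fasn (0.68 ± 0.13, limma adjusted p = 0.00124), Plin2 (0.67 ± 0.14, limma adjusted p = 0.00179), Cyp51 (0.64 ± 0.16, limma adjusted p = 0.00673), Srebf2 (0.63 ± 0.16, limma adjusted p = 0.00915) and Acaca (0.56 ± 0.15, limma adjusted p = 0.0126) were also above 0. The second Acaca probe set had 0.32, not called (limma adjusted p = 0.32), and the call was lost when the probe sets of a gene were averaged. Fdps (-0.48 ± 0.08, limma adjusted p = 0.000644) and Srebf1 (-0.53 ± 0.12, limma adjusted p = 0.0033) were below 0. For Gpat3 the interaction was -0.24 and was not called (limma adjusted p = 0.86). Loss of Hdac2 went with 2.78 ± 0.52 without Hdac1 and 3.02 ± 0.52 with it. With errors of this size, these changes are not shown to be equal. Sqle and Acly had called interactions of 0.51 and -0.45 although neither was called against wild type in any knockout; that of Acly was lost in 4 of 16 fits without 1 array.

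**Figure D3:**
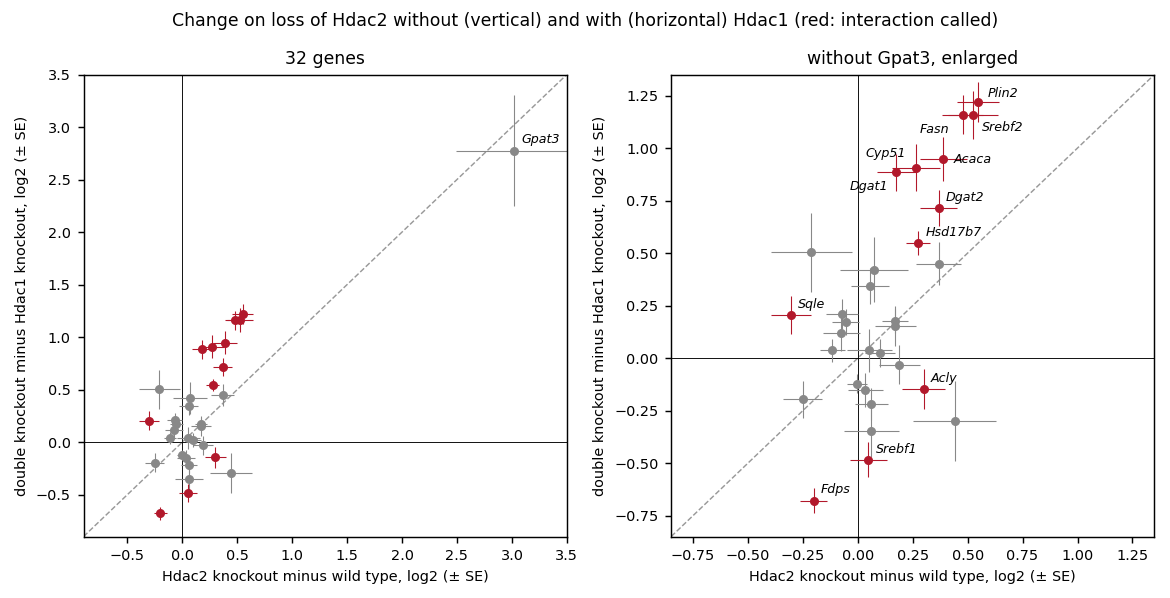
Log2 change on losing Hdac2 in oocytes without Hdac1 (y axis, double knockout minus Hdac1 knockout, ± SE) against the change in oocytes with Hdac1 (x axis, Hdac2 knockout minus wild type, ± SE) for the 32 genes, and enlarged without Gpat3; red marks a called interaction and the dashed line equal changes. Gpat3 lies near the dashed line with the widest error bars, while Plin2, Srebf2, Fasn, Acaca and Dgat1 lie above it and Fdps and Srebf1 below.

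The changes in these backgrounds come from separate arrays. They had the same sign in 19 of 32 members (59.4%, beside 58.8% of all probe sets), and their Pearson correlation across members was 0.79, or 0.59 without Gpat3, beside 0.39 over all probe sets; genes are not independent replicates. The change was the larger in size in oocytes without Hdac1 for 22 of 32 members (68.8%, beside 69.7% of all probe sets). Of the 16 members that rose in the double knockout, 12 had their highest mean there and their second highest in the Hdac2 knockout (75%, beside 58% of the 3924 probe sets called higher); having risen in the double knockout largely fixes the first place. Of the 3 that fell, 1 (Fdps) had its lowest mean in the double knockout and its second lowest in the Hdac2 knockout. The share of all probe sets called lower with that order was not computed.

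Other genes of lipid metabolism, taken from lists of related pathways, changed in both directions. Over all probe sets, 18.5% were called higher and 19.8% lower in the double knockout. In the Hdac2 knockout these shares were 2.86% and 2.74%. Of 3 further cholesterol genes measured (of 7 listed), Ggps1, which makes geranylgeranyl diphosphate from the product of Fdps, averaged 8.47 ± 0.18 in double knockout and 7.72 ± 0.06 in wild-type oocytes (log2 level, SD, n = 4; change 0.76, limma adjusted p = 1.26e-05). Lbr and Msmo1, both with sterol-modifying products, fell by 0.54 and 0.40. Of 13 genes of SREBP control, sterol uptake and export measured (of 19), 3 rose and 6 fell, with a median change of -0.16 beside -0.01 over all probe sets. Vldlr, a lipoprotein receptor, averaged 7.79 ± 0.14 in double knockout and 5.97 ± 0.46 in wild-type oocytes, a rise of 1.82 (3.52-fold, limma adjusted p = 2.98e-06). Mbtps1, the protease that makes the first cut in releasing SREBPs, averaged 7.71 ± 0.12 in double knockout and 8.50 ± 0.08 in wild-type oocytes (-0.79, limma adjusted p = 7.88e-08). The sterol exporter Abcg1 and the HDL receptor Scarb1 fell by 0.93 and 0.77 in the double knockout and by 0.44 and 0.46 in the Hdac2 knockout, where 1 gene of the 13 rose and 3 fell.

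Of 24 further genes of fatty acid synthesis and desaturation measured (of 26), 11 rose and 3 fell in the double knockout. Of all probe sets, 18.5% rose and 19.8% fell there. The median change was 0.21 beside -0.01 over all probe sets. Slc25a1, the carrier that exports citrate from the mitochondrion, averaged 9.01 ± 0.12 in double knockout, 8.30 ± 0.06 in Hdac2 knockout and 8.01 ± 0.09 in Hdac1 knockout oocytes, against 7.93 ± 0.08 in wild-type oocytes. Its rise was 1.08 against wild type in the double knockout (limma adjusted p = 2.51e-09) and 0.37 in the Hdac2 knockout (limma adjusted p = 0.00371). The elongase genes Elovl4 and Elovl2 rose by 1.13 and 1.14 in the double knockout, and Elovl4 by 0.35 in the Hdac2 knockout, where 4 of the 24 rose and none fell. Acacb, which encodes the carboxylase isoform linked to control of fatty acid oxidation, averaged 7.42 ± 0.12 in double knockout and 8.21 ± 0.10 in wild-type oocytes (-0.79, limma adjusted p = 3.22e-07), opposite in direction to Acaca.

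Of 11 further triglyceride genes measured (of 12), 3 rose and 2 fell in the double knockout, with a median change of 0.02. Over all probe sets, 18.5% rose and 19.8% fell there, with a median change of -0.01. Agpat2 and Agpat3, of the acyltransferase family that follows the GPAT step, rose by 0.51 and 0.34; of the lipin phosphatidate phosphatase genes, Lpin1 rose by 0.45 and Lpin2 fell by 0.27. Of 16 further droplet and lipolysis genes measured (of 17), 6 rose and none fell, with a median change of 0.08. They included G0s2 (0.42), which encodes an inhibitor of the triglyceride lipase, Pnpla2 (0.33), which encodes that lipase, Abhd5 (0.26), its activator, and Bscl2 (0.26), which encodes seipin. No gene of these further lists was called in the Hdac1 knockout, and none of the triglyceride and droplet lists in the Hdac2 knockout.

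**Figure D4:**
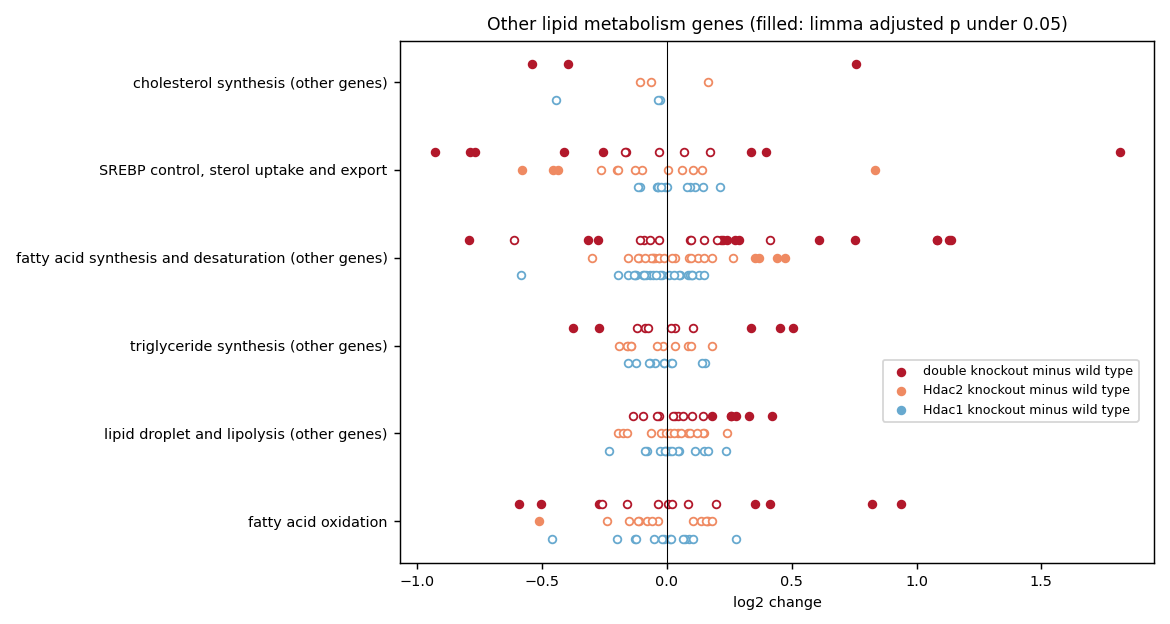
Log2 change against wild type (x axis) of genes from 6 lists of related lipid pathways (rows), 1 point per gene, in the double knockout, the Hdac2 knockout and the Hdac1 knockout from top to bottom in each row; filled points were called at an adjusted p under 0.05. The fatty acid synthesis row has filled points mostly to the right in the double knockout, the point farthest right (1.82) is Vldlr, and no point is filled in the Hdac1 knockout.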

How the data were processed

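Values were taken from the authors' deposited table, which holds 1 value per probe set and array on a log scale, read here as log2; the base is inferred from the range (2.07 to 12.89) and fold changes rest on it. The submitters' processing notes name MAS5, and the sources used here do not give the normalization. The deposited log2 values were used without further normalization; array medians lay between 4.46 and 4.59. The number of arrays limits the precision, and no detection calls were at hand.

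A single linear model of genotype means was fitted to the 16 arrays and 21218 single-symbol probe sets with limma 3.58.1 in R 4.3.3 (lmFit, eBayes, 12 residual degrees of freedom, 7 contrasts), with two-sided p-values adjusted by Benjamini-Hochberg over all of them. Standard errors are limma's. The scripts were tested on simulated data. The members, lists and motifs were chosen with earlier results of these data known. Described array by array were up to 6 called members in each direction with the largest changes against wild type and the 6 interactions with the smallest p; of each other list, up to 4 genes called in the double knockout and 2 called in the Hdac2 knockout, by smallest adjusted p. Scd3 and Scd4 were named outside this rule, beside Scd1 and Scd2. Acaca and Idi1 had a second probe set. Of the 21218 probe sets, 21185 matched the RefSeq gene table by identifier. Replicate numbers did not pair the samples: deviations from the genotype means of same-numbered arrays correlated at -0.148 to 0.0866.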

Additional observations from a re-analysis of the deposited data

Results flagged for a closer look

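In 8 of 128 groups of 4 arrays, 1 array lay far from the others by Dixon's ratio of its gap to the range of the group; chance gives about 1 group in 20. The ratio was 0.99 for Elovl1 in Hdac1 knockout replicate 4 (lowest), 0.927 for Scd1 in double knockout replicate 2 (highest), 0.926 for Fdft1 in wild type replicate 3 (lowest) and 0.912 for Elovl5 in double knockout replicate 1 (highest). It was 0.894 for Hsd17b7 in Hdac2 knockout replicate 1 (highest), 0.861 for Acly in wild type replicate 4 (lowest), 0.853 for Nsdhl in Hdac2 knockout replicate 2 (highest) and 0.837 for Ebp in wild type replicate 2 (lowest).

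The effect of losing Hdac2 differed between oocytes without and with Hdac1 for 12 members, by limma's interaction term. That is 37.5% of the members, beside 23.3% of all probe sets (11.7% above and 11.6% below 0). On the log2 scale the interaction was 0.709 for Dgat1, 0.682 for Fasn, 0.669 for Plin2, 0.642 for Cyp51, 0.634 for Srebf2, 0.559 for Acaca, 0.51 for Sqle, 0.345 for Dgat2 and 0.272 for Hsd17b7. It was -0.532 for Srebf1, -0.477 for Fdps and -0.446 for Acly. For Dgat2 (limma adjusted p = 0.0492) the call was lost in 10 of 16 fits that left out 1 array and in 3 of 6 other settings. The call for Hsd17b7 was lost after centring of the arrays on their medians.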

How the results depend on the processing

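With a change of at least 1.4-fold asked for as well, the limit that the series' design text names, the members called were 11 in the double knockout and 3 in the Hdac2 knockout against wild type, 11 in the double knockout against the Hdac1 knockout, 6 against the Hdac2 knockout, and 4 between the single knockouts. The share of all probe sets that passed both limits was not computed, so these counts cannot be set against it. Leaving out 1 array at a time gave 15 to 18 members in the double knockout, 5 to 8 in the Hdac2 knockout and 0 in the Hdac1 knockout against wild type, 13 to 19 and 13 to 16 in the double knockout against the Hdac1 and the Hdac2 knockout, 6 to 9 between the single knockouts, and 11 to 13 interactions. The Hdac2 knockout had 5 called members without wild type replicate 4, Hdac2 knockout replicate 1 or Hdac2 knockout replicate 2. With the replicate number as a block, the counts against wild type were 16 (double knockout), 7 (Hdac2 knockout) and 0 (Hdac1 knockout), then 19 and 15 in the double knockout against the Hdac1 and the Hdac2 knockout, 7 between the single knockouts and 12 for the interaction; the numbers did not pair the samples. Over all probe sets the block gave 3797 higher and 4088 lower in the double knockout against wild type. The Hdac2 knockout had 491 and 459 and the Hdac1 knockout 4 and 8. The double knockout had 3879 and 4193 against the Hdac1 knockout, and 3438 and 3455 against the Hdac2 knockout. The Hdac1 knockout had 494 and 532 against the Hdac2 knockout, and the interaction 2364 above and 2303 below 0.

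Centring the arrays on their medians moved the median change of all probe sets in the double knockout to -0.10 and the calls there to 2895 higher and 6506 lower, against 3924 and 4198 as deposited. Members were then 12 higher and 4 lower in the double knockout, with Idi1 now lower, and 6 higher and 2 lower (Fdps and Sqle) in the Hdac2 knockout. They were 11 higher and 7 lower in the double knockout against the Hdac1 knockout, and 7 above and 5 below 0 in the interaction. Of all probe sets, 443 were higher and 763 lower in the Hdac2 knockout after centring. Against the Hdac1 knockout 3066 were higher and 6238 lower in the double knockout, and the interaction had 2030 above and 3005 below 0. Quantile normalization gave 12 higher and 3 lower in the double knockout and 6 higher and 0 lower in the Hdac2 knockout, 12 higher and 6 lower in the double knockout against the Hdac1 knockout, and 8 above and 4 below 0 in the interaction. Of all probe sets, 3382 were then higher and 5025 lower in the double knockout, and 559 and 646 in the Hdac2 knockout. The double knockout against the Hdac1 knockout had 3464 higher and 5095 lower, and the interaction 2208 above and 2909 below 0. Of 1355 values of single members under alternatives, 1173 kept direction and call, 182 lost the call and 0 reversed. The causes were not tested, except that the 1.4-fold limit removes calls by its construction.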

Other observations

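Of 14 genes of fatty acid oxidation measured (of 16 listed), 4 rose and 3 fell in the double knockout. Of all probe sets, 18.5% rose and 19.8% fell there. The median change of the list was 0.01 beside -0.01 over all probe sets. Hadhb and Hadha, which encode the subunits of the mitochondrial trifunctional protein, rose by 0.94 (limma adjusted p = 3.86e-08) and 0.41 (limma adjusted p = 1.1e-06), and Acadl, an acyl-CoA dehydrogenase, by 0.82 (limma adjusted p = 2.34e-05). Ppara, a transcription factor of fatty acid oxidation, fell by 0.50 (limma adjusted p = 0.000619). In the Hdac2 knockout the carnitine carrier Slc25a20 fell by 0.51 (limma adjusted p = 0.0182) and no gene of the list rose. Of all probe sets, 2.86% rose and 2.74% fell there.

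The Hdac1 knockout arrays had a wider range of Gpat3 (5.19 to 7.68) than the wild-type arrays (5.55 to 5.62). The nearest tested genes on either side on chromosome 5 were looked at after this was seen. Abraxas1 ran from 8.80 to 9.20 in Hdac1 knockout arrays and from 9.03 to 9.06 in wild-type arrays, and Nkx6-1 from 4.75 to 4.85 in Hdac1 knockout arrays and from 4.39 to 5.19 in wild-type arrays. The source of the Gpat3 spread was not tested.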
